A study of Mus musculus with 20 samples.

Results

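Calcineurin, its RCAN regulators and its NFAT targets were represented by 10 genes of the 17148 listed in the count tables of both brain regions. These were Ppp3ca, Ppp3cb, Ppp3cc, Ppp3r1, Rcan1, Rcan2, Nfatc1, Nfatc2, Nfatc3 and Nfatc4. They were chosen by gene symbol and not by a measured value, though with earlier results of these data known. All 10 passed the filter on low counts in each comparison.

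Calcineurin is a protein phosphatase switched on by calcium and calmodulin. It joins a catalytic A subunit, encoded by Ppp3ca, Ppp3cb or Ppp3cc, to a calcium-binding B subunit encoded by Ppp3r1. RCAN proteins bind the catalytic subunit and can restrain it, and active calcineurin dephosphorylates the NFAT transcription factors encoded by Nfatc1 to Nfatc4, which then enter the nucleus. In cortical and hippocampal neurons the enzyme is abundant and is known for its part in synaptic depression and in coupling calcium entry to transcription.

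The study sequenced total RNA of frontal cortex and hippocampus from C57Bl6/J mice that were wild type or Ncs1-/-, that is, without a working copy of the gene for neuronal calcium sensor 1. There were 5 libraries of each genotype in each region, 20 in all, and the labels name no treatment. Sex, age and the way the allele was made are not stated in the labels. Whether each library is a mouse of its own is not stated there either. The p-values therefore set differences between groups against the spread of these libraries, some of which could be technical. They may not extend to other mice.

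RefSeq (GRCm38.p6) places 2 transcription starts in Rcan1, and the counts used here sum over both, so reads of the 2 transcripts were not separated. The 250 bases before each start are shown because the internal start is known for its response to calcineurin through NFAT, and the 250 bases before the first start of Rcan2 are shown because Rcan2 had the largest difference between regions among the 10 genes. The windows are chr16:92466170-92466419 on the minus strand for the first start of Rcan1, chr16:92400079-92400328 on the minus strand for its internal start and chr17:43801102-43801351 on the plus strand for Rcan2. Capitals mark GGAAA, the core bound by NFAT, read on either strand.
Rcan1, first start: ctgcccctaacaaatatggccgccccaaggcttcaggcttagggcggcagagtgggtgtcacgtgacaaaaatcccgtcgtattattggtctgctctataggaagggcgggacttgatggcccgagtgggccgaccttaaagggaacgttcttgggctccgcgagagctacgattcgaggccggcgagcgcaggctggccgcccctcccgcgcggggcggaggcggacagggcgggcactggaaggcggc
Rcan1, internal start: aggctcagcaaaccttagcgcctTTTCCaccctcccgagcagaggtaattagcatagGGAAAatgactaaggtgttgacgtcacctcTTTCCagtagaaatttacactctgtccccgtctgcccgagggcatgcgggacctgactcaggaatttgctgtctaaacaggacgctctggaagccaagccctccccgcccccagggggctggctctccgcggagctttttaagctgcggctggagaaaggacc
Rcan2, first start: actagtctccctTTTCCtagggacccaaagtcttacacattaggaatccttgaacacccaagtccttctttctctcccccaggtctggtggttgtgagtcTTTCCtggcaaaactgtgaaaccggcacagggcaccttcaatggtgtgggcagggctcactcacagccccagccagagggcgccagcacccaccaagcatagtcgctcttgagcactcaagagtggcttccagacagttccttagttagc
The window of the internal Rcan1 start held 3 matches to GGAAA, which began 227, 193 and 163 bases before the start, and 1 match in lower case to TGANTCA, the core bound by AP-1. The window of the first Rcan1 start held 0 matches to GGAAA, and that of Rcan2 held 2, which began 238 and 150 bases before the start. Of all 32851 RefSeq windows of this length, 55.6% held at least 1 match to GGAAA, 21.4% at least 2 and 6.39% at least 3, and 6.75% held at least 1 match to TGANTCA. Among the other genes with an entry, Ppp3cb and Nfatc4 had 3 matches to GGAAA each, Nfatc2 had 3 at 1 start and 1 at the other, Nfatc3 had 1 and 0, and Ppp3r1 had 0. The other 2 starts of Rcan2 had 0. A match describes the letters of the window and is not a measured site.

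The libraries held 16.6 M to 34.6 M counts each, with a median of 21.0 M. Levels are given as CPM, counts scaled to a library total of 1 M with TMM factors over the 20 libraries, and differences as log2 fold changes with their standard error (SE) from edgeR's quasi-likelihood test. A difference was called at a Benjamini-Hochberg adjusted p under 0.05 over all genes tested. Ncs1 checked the labels: it lay between 351 and 387 CPM in wild-type cortex, 255 and 265 in knockout cortex, 427 and 471 in wild-type hippocampus, and 279 and 329 in knockout hippocampus. The knockout libraries therefore lay below all wild-type libraries in both regions, with log2 fold changes of -0.51 and -0.55 (edgeR adjusted p 1.75e-05 and 0.00145), while the labels do not say which part of the gene was deleted.

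The tissue labels were checked against marker genes. Markers of dentate granule cells (Prox1, Dsp, C1ql2), which belong to hippocampus, summed to 154 to 325 CPM in hippocampus libraries and 18.5 to 24.9 in cortex libraries. Markers of striatal projection neurons (Drd1, Drd2, Adora2a, Rgs9, Ppp1r1b) summed to 341 to 546 CPM in wild-type cortex and 371 to 606 in knockout cortex, against 59.6 to 83.2 and 59.9 to 96.4 in hippocampus. All 5 were called lower in hippocampus in both genotypes, and 4 of 5 interneuron markers were too. Among other lists, 3 of 4 oligodendrocyte markers were called higher in wild type and 2 of 4 in knockout. So were 2 of 3 CA pyramidal neuron markers in both genotypes. Of 4 excitatory neuron and 4 astrocyte markers, 2 each were higher and 1 each lower. Over all genes edgeR called 18.8% higher and 20.7% lower in wild type, and 19.2% and 19.6% in knockout. No marker on any list was at 0 in all libraries of a group. Choroid plexus RNA was uneven: Ttr reached 2000 CPM in wild-type hippocampus replicate 4, 3119 in knockout hippocampus replicate 2 and 320 in knockout hippocampus replicate 4, where the lowest hippocampus library had 2.96. In cortex it reached 207 CPM in knockout replicate 1, where the other cortex libraries held 0.105 to 1.76. For the region comparisons, hippocampus replicate 4 was left out in wild type and hippocampus replicates 2 and 4 in knockout. The same 4 genes in wild type and 5 in knockout, named below, were then called between regions. Without knockout cortex replicate 1 those 5 genes were called in knockout too, and 0 of the 10 between genotypes in cortex. In these bulk samples fewer cells of a type and less RNA per cell cannot be told apart. The library names in the labels carry 1 lane number for cortex and another for hippocampus, so region and sequencing lane cannot be told apart either.

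The first question was how the 10 genes differ between the regions. In wild type 2 of them, Ppp3ca and Ppp3cb, were higher in hippocampus and 2, Rcan1 and Rcan2, were lower. Over all 14849 genes tested, edgeR called 39.5%, with 18.8% higher and 20.7% lower. In knockout 3 genes, Ppp3ca, Ppp3cb and Ppp3r1, were higher and the same 2 RCAN genes were lower, where 38.8% of the 15032 genes tested were called, 19.2% higher and 19.6% lower. The shares of 4 and 5 of 10 were thus near the share of all genes. The CPM of the regions did not overlap for 4 of the 10 genes in wild type and 5 of 10 in knockout, which were the called ones. Of all genes, called or not, 29.5% did not overlap in wild type and 29.8% in knockout. None of the 4 NFAT genes was called in either genotype. The median log2 fold change of the 10 genes was 0.06 in wild type and 0.08 in knockout, beside 0.01 and 0.01 over all genes.

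**Figure D1:**
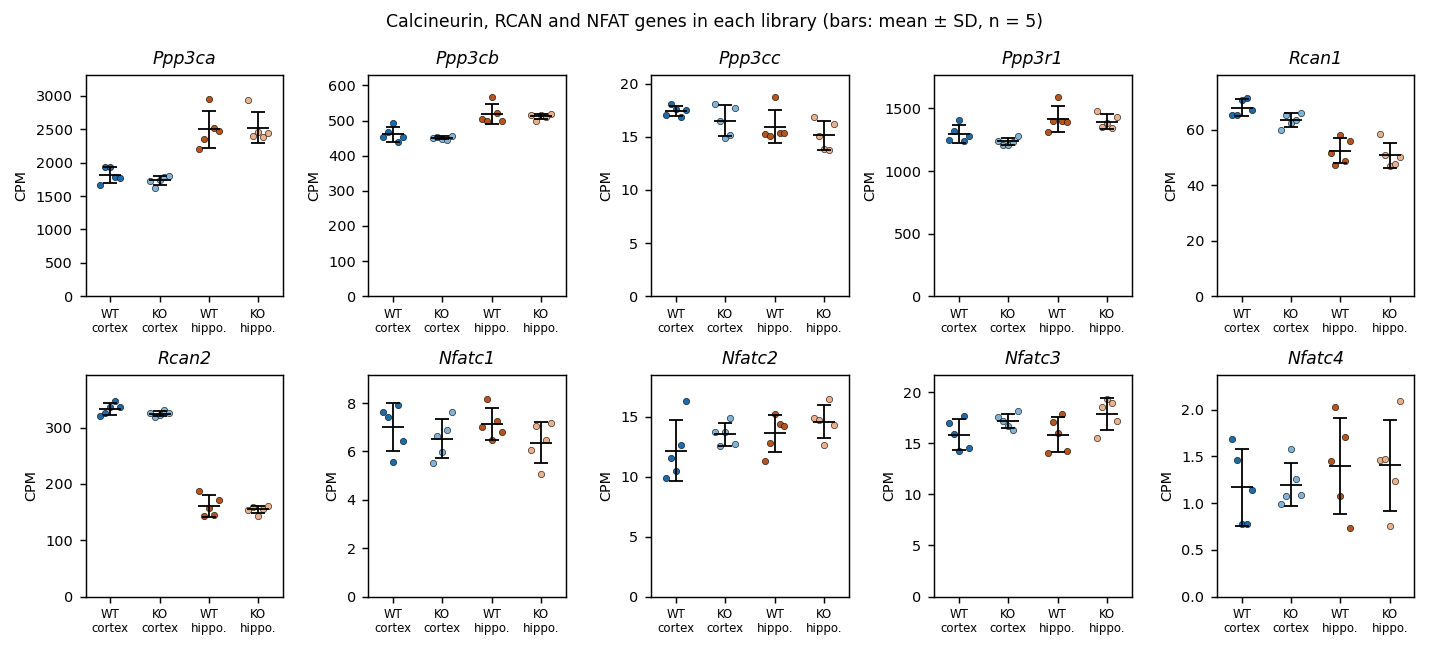
CPM of the 10 genes on the vertical axes (from 0) in each library, by group on the horizontal axes, with bars for mean ± SD over 5 libraries. Rcan2 fell from 333 CPM in wild-type cortex to 161 in wild-type hippocampus with no overlap, Ppp3ca was higher in hippocampus, and the wild-type (WT) and knockout (KO) points of a region overlapped for each gene.

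Ppp3ca (chr3:136670066-136937727, plus strand, mm10) encodes the calcineurin A alpha subunit, the main catalytic isoform of forebrain neurons. In replicate order it stood at 1665, 1937, 1928, 1780 and 1763 CPM in wild-type cortex and at 2201, 2347, 2949, 2517 and 2471 in wild-type hippocampus. Knockout libraries gave 1726, 1617, 1738, 1781 and 1800 CPM in cortex and 2940, 2401, 2460, 2376 and 2438 in hippocampus. Every hippocampus library was above every cortex library, with wild-type hippocampus replicate 3 and knockout hippocampus replicate 1 the highest. The log2 fold change of hippocampus against cortex was 0.44 in wild type (SE 0.07, 95% interval 0.29 to 0.60, edgeR adjusted p 0.000238) and 0.54 in knockout (SE 0.06, 0.41 to 0.66, adjusted p 5.56e-06). A fold change of at least that size was found in 21.6% of all genes tested in wild type and 17.8% in knockout.

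Ppp3cb (chr14:20499364-20546573, minus strand) encodes the A beta subunit. Wild-type libraries held 454, 467, 492, 438 and 452 CPM in cortex and 505, 500, 567, 521 and 499 in hippocampus. For knockout the values were 451, 454, 448, 445 and 455 CPM in cortex and 515, 499, 515, 510 and 519 in hippocampus. The regions did not overlap in either genotype, although the lowest wild-type hippocampus library and the highest wild-type cortex library lay close together. The rise in hippocampus was 0.15 on the log2 scale in wild type (SE 0.05, edgeR adjusted p 0.0190) and 0.18 in knockout (SE 0.03, adjusted p 0.000697). In wild type the call rested on few libraries: without cortex replicate 4 the adjusted p was 0.0503 at a log2 fold change of 0.14, and without the 2 cortex libraries with the most striatal marker RNA it was 0.118 at 0.12. Ppp3cb overlaps 1810062O18Rik on the other strand, which had a mean of 6.7 counts in cortex and 5.6 in hippocampus.

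Ppp3cc (chr14:70217865-70289497, minus strand), the A gamma subunit best known from testis, was the scarce catalytic gene, at 17.4 ± 0.488 CPM in wild-type cortex, 16.5 ± 1.45 in knockout cortex, 15.9 ± 1.55 in wild-type hippocampus and 15.1 ± 1.39 in knockout hippocampus (SD, n = 5 each). Its regions overlapped. The log2 differences of hippocampus against cortex were -0.15 (SE 0.07, edgeR adjusted p 0.109) and -0.13 (SE 0.08, adjusted p 0.257). In wild type 1 library mattered: 4 of the 5 hippocampus libraries, at 15.1 to 15.3 CPM, were below every cortex library, and replicate 3, at 18.7 CPM, was above all of them. Without that replicate the difference was -0.21 (edgeR adjusted p 0.0124), and with the trend on exonic length removed it was -0.19 (adjusted p 0.0387).

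The B subunit gene Ppp3r1 (chr11:17159298-17200380, plus strand) encodes the part of the enzyme that binds calcium. It read 1245, 1323, 1408, 1237 and 1276 CPM in wild-type cortex and 1308, 1400, 1590, 1397 and 1389 in wild-type hippocampus. In knockout its values were 1243, 1209, 1212, 1235 and 1280 CPM in cortex and 1477, 1350, 1381, 1340 and 1429 in hippocampus. The regions overlapped in wild type and did not in knockout. The log2 fold change was 0.11 in wild type (SE 0.05, edgeR adjusted p 0.127), which was not called, and 0.17 in knockout (SE 0.04, adjusted p 0.00238), which was. The difference between the genotypes was itself not called, at 0.05 (SE 0.07, unadjusted p 0.463 in edgeR). In wild type Ppp3r1 was called in edgeR with total-count scaling (0.14, adjusted p 0.0276), in 1 fit of all 20 libraries (0.13, adjusted p 0.0332) and without cortex replicate 3 (0.14, adjusted p 0.0492). A block for the replicate number called it too, as given in the closing section with what is known of pairing.

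Rcan1 (chr16:92391951-92466169, minus strand) encodes regulator of calcineurin 1, a feedback inhibitor. Its wild-type values were 65.4, 65.1, 70.8, 71.3 and 66.9 CPM in cortex and 51.7, 47.4, 57.9, 48.9 and 55.9 in hippocampus. Knockout cortex held 59.9, 65.4, 62.3, 63.5 and 65.8 CPM, and knockout hippocampus 58.4, 50.7, 46.9, 47.6 and 50.2. All hippocampus libraries were below all cortex libraries of their genotype, with the smallest distance in knockout, where hippocampus replicate 1 came near cortex replicate 1. Rcan1 was lower by a log2 fold change of -0.39 in wild type (SE 0.06, edgeR adjusted p 0.000157) and -0.32 in knockout (SE 0.06, adjusted p 0.000726).

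Rcan2 (chr17:43801352-44039516, plus strand), its paralog and a brain-enriched member of the family, showed the widest difference of the 10 genes. Wild-type cortex held 320, 326, 336, 347 and 336 CPM and wild-type hippocampus 188, 143, 158, 145 and 171. Values in knockout were 325, 319, 323, 331 and 325 CPM in cortex and 153, 159, 143, 155 and 162 in hippocampus. The highest hippocampus library was far below the lowest cortex library in both genotypes, and the cortex libraries lay close together. The level in hippocampus was 47.8% of that in cortex in wild type (log2 fold change -1.07, SE 0.07, 95% interval -1.22 to -0.91, edgeR adjusted p 1.07e-07) and 47.4% in knockout (-1.08, SE 0.04, -1.17 to -0.99, adjusted p 3.91e-10). Fold changes of at least that size were found in 6.26% of the genes tested in wild type and 6.47% in knockout. Without the 2 cortex libraries of each genotype that held the most striatal marker RNA, an alternative added after the data were seen, Rcan2 stood at -1.04 and -1.06 and remained called. The cortex libraries kept still held 341 to 433 CPM of striatal markers in wild type and 371 to 502 in knockout, against 59.6 to 96.4 in hippocampus. The part of striatal or other marker genes in the RCAN and catalytic subunit differences was therefore not tested.

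**Figure D2:**
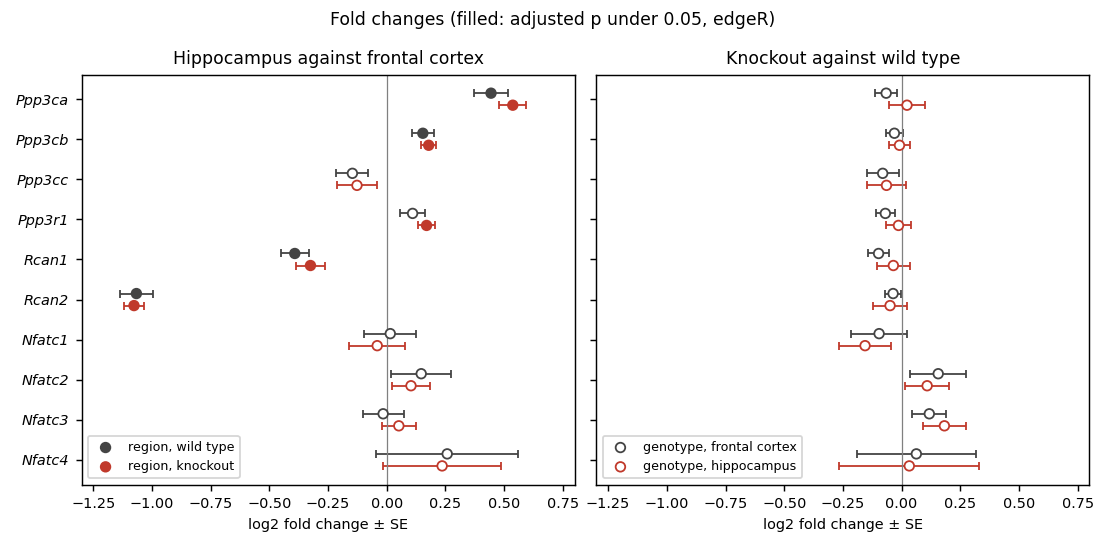
Log2 fold changes with SE bars of the 10 genes, hippocampus against frontal cortex on the left and knockout against wild type on the right, with filled points for an edgeR adjusted p under 0.05. Filled points occur on the left only, at Ppp3ca, Ppp3cb, Rcan1 and Rcan2 in wild type and at these and Ppp3r1 in knockout.

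The NFAT genes were scarce in both regions. Nfatc1 (chr18:80606205-80713071, minus strand) had group means from 6.36 to 7.14 CPM, Nfatc2 (chr2:168476410-168601657, minus strand) from 12.2 to 14.6, and Nfatc3 (chr8:106058818-106130537, plus strand) from 15.8 to 17.9. Nfatc4 (chr14:55824795-55833943, plus strand), the isoform often studied in hippocampal neurons, had group means from 1.17 to 1.40 CPM, or 16 to 73 counts per library. All 4 encode calcium-regulated NFAT factors that calcineurin dephosphorylates. Their regions overlapped in both genotypes, and none passed the test.

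For Nfatc3 the wild-type libraries held 17.0, 15.9, 14.2, 17.6 and 14.5 CPM in cortex and 14.0, 17.0, 16.0, 17.9 and 14.2 in hippocampus, and the knockout libraries 17.5, 17.1, 16.7, 16.3 and 18.2 in cortex and 15.5, 18.5, 19.3, 18.9 and 17.2 in hippocampus. Nfatc2 read 9.84, 11.6, 10.5, 12.6 and 16.3 CPM in wild-type cortex and 11.3, 12.8, 15.2, 14.4 and 14.2 in wild-type hippocampus, and 13.7, 12.5, 13.8, 14.9 and 12.7 in knockout cortex and 14.8, 14.7, 12.6, 16.5 and 14.3 in knockout hippocampus. The groups overlapped for both genes, with the narrowest spread in knockout cortex, and wild-type cortex replicate 5 was high for Nfatc2. The region differences with their 95% intervals were -0.02 (-0.20 to 0.17) in wild type and 0.05 (-0.11 to 0.21) in knockout for Nfatc3, and 0.15 (-0.13 to 0.42) and 0.10 (-0.07 to 0.28) for Nfatc2. For Nfatc1 they were 0.02 (-0.22 to 0.25) and -0.04 (-0.30 to 0.22). The intervals of Nfatc4 were the widest, 0.26 (-0.40 to 0.91) and 0.24 (-0.31 to 0.78), so a change of the size seen for Ppp3ca was not detectable for Nfatc4 at this depth. Without the 2 cortex libraries with the most striatal marker RNA, which include wild-type cortex replicate 5, Nfatc2 was called in wild type at 0.34 (edgeR adjusted p 0.0318).

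The second question was whether the loss of Ncs1 moved these genes. With edgeR's quasi-likelihood test 0 of 10 were called in cortex, where 0.027% of the 14823 genes tested were called (4 genes), and 0 of 10 in hippocampus, where 0.0266% of 15042 were (4 genes). DESeq2 and limma-voom also called 0 in each region, although DESeq2 gave no adjusted p for Ppp3cc and the 4 NFAT genes in cortex. Its 0 in cortex therefore covers the other members only, and over all genes it called more than edgeR there, as given at the end. At an unadjusted p under 0.05 there was 1 gene in cortex, Rcan1, where 14.8% of all genes fell under it, and 0 in hippocampus, where 3.78% did. The CPM of knockout and wild type overlapped for all 10 genes in both regions, and the groups of 2.17% of all genes in cortex and 0.446% in hippocampus did not overlap. Without wild-type cortex replicate 5 edgeR called 563 of all genes in cortex, and without the 3 hippocampus libraries with the most Ttr it called 0 of all genes in hippocampus, with 0 of the 10 in both cases. The median log2 difference of the 10 genes was -0.05 in cortex and -0.01 in hippocampus, beside 0.00 and 0.01 over all genes.

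The intervals bound what these libraries could have shown. Rcan1 in cortex differed by -0.10 on the log2 scale (SE 0.04, unadjusted p 0.0398 and adjusted p 0.317 in edgeR), with knockout below every wild-type library in 3 of 5 libraries. In hippocampus its difference was -0.04 (SE 0.07, edgeR adjusted p 0.991). For Rcan1 the 95% interval of the fold was 0.876 to 0.996 in cortex, below 1 but not adjusted over the genes tested, and 0.877 to 1.09 in hippocampus. The 95% intervals of the fold of knockout over wild type were 0.891 to 1.02 in cortex and 0.904 to 1.14 in hippocampus for Ppp3ca, 0.929 to 1.03 and 0.930 to 1.06 for Ppp3cb, and 0.899 to 1.01 and 0.916 to 1.07 for Ppp3r1. For Rcan2 they were 0.929 to 1.02 and 0.868 to 1.08, so that for these 4 genes both intervals lay within 0.868 and 1.14. Ppp3cc had intervals of 0.855 to 1.05 and 0.844 to 1.08.

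Among the NFAT genes Nfatc3 had the largest hippocampal difference, 0.18 on the log2 scale (SE 0.09, edgeR adjusted p 0.991), with 3 of 5 knockout libraries above every wild-type library and a fold interval of 0.991 to 1.30. In cortex its difference was 0.12 (SE 0.07, adjusted p 0.457). Nfatc2 differed by 0.16 in cortex (SE 0.12) and 0.11 in hippocampus (SE 0.09), and Nfatc1 by -0.10 (SE 0.12) and -0.16 (SE 0.11). The fold interval of Nfatc4 ran from 0.718 to 1.52 in cortex and from 0.651 to 1.61 in hippocampus. Neither region gave a call for any of them.

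Whether the genotype difference itself differed between regions was tested over the 20 libraries. EdgeR called 0 of the 10 genes, 0 of them had an unadjusted p under 0.05, and DESeq2 and limma-voom called 0 as well. Over all 15310 genes tested edgeR called 0.0%, with an unadjusted p under 0.05 in 1.4%, and DESeq2, or edgeR without knockout cortex replicate 5, called 1 gene that was not among the 10. The estimates for the 10 genes ran from -0.07 for Nfatc1 to 0.08 for Ppp3ca. The largest SE, 0.41, belonged to Nfatc4.

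Levels of different genes were compared as CPM per kb of exonic length (GENCODE). That length joins all annotated exons of a gene, which may be longer than the transcripts present. The order of genes here, and the shares and levels of ratios below, depend on these lengths, and their SDs do not cover that. In cortex the order from high to low was Ppp3r1, Ppp3ca, Rcan2, Ppp3cb, Rcan1, Ppp3cc, Nfatc3, Nfatc2, Nfatc1 and Nfatc4. In hippocampus Ppp3cb and Rcan2 changed places, since Rcan2 was at 76.2 ± 2.38 CPM per kb in wild-type cortex and 36.8 ± 4.32 in wild-type hippocampus (SD, n = 5), around 52.3 ± 2.31 and 58.8 ± 3.26 for Ppp3cb. Neighbours in the order did not overlap, apart from Nfatc3 and Nfatc2 in all 4 groups and Nfatc2 and Nfatc1 in the wild-type groups. Wild-type cortex had 402 ± 21.7 CPM per kb of the B subunit gene and 182 ± 11.7 of Ppp3ca, against 0.201 ± 0.0701 for Nfatc4.

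**Figure D3:**
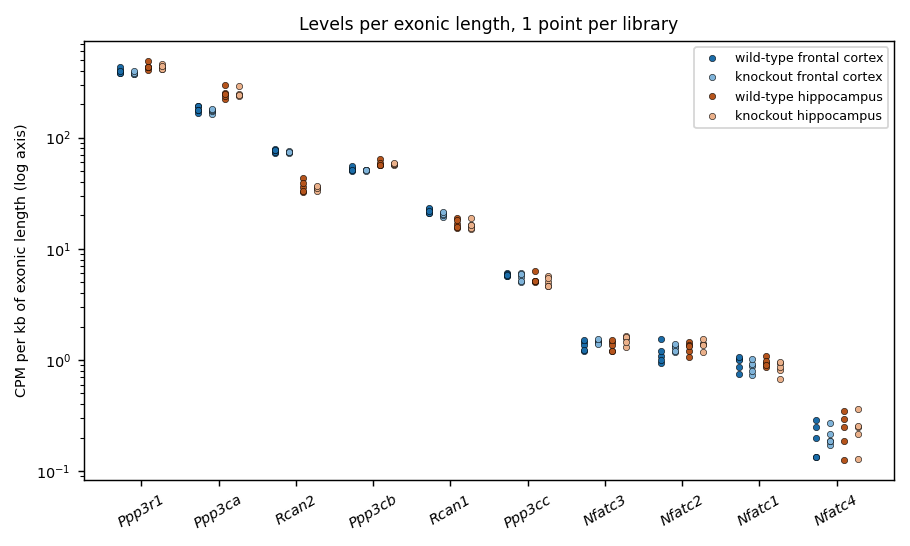
CPM per kb of exonic length (log axis) for each gene, ordered by its mean over all 20 libraries, with 1 point per library and colours for the 4 groups. All calcineurin subunit genes lie above the NFAT genes, Ppp3cc the closest to them, and Rcan2 is the gene whose cortex and hippocampus points separate most.

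Per kb, Ppp3ca made up 75.7% ± 0.862 of the catalytic subunit signal in wild-type cortex, 75.4% ± 0.884 in knockout cortex, 79.5% ± 1.03 in wild-type hippocampus and 79.9% ± 1.24 in knockout hippocampus (SD, n = 5). Ppp3cb held 21.8% ± 0.805, 22.2% ± 0.767, 18.8% ± 0.989 and 18.5% ± 1.22 in the same order, and Ppp3cc between 1.61% and 2.44% as group means. Of the NFAT signal per kb, Nfatc3 held 35.2% to 38.3% as group means, Nfatc2 31.6% to 34.5%, Nfatc1 21.2% to 25.7% and Nfatc4 5.39% to 6.23%.

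Ratios within a library do not depend on the scaling between libraries and were tested by a two-sided exact permutation test, 12 tests in all. The ratio of Ppp3cb to Ppp3ca in counts per kb was 0.288 ± 0.0140 in wild-type cortex and 0.236 ± 0.0156 in wild-type hippocampus, and 0.295 ± 0.0137 and 0.231 ± 0.0185 in knockout (SD, n = 5). For Ppp3r1 to Ppp3ca it was 2.21 ± 0.0818 and 1.76 ± 0.0774 in wild type and 2.21 ± 0.0677 and 1.72 ± 0.0966 in knockout. Rcan2 to Rcan1 stood at 3.46 ± 0.0813 and 2.17 ± 0.237 in wild type and 3.62 ± 0.156 and 2.16 ± 0.179 in knockout. All 3 ratios were lower in every hippocampus library than in every cortex library of the genotype, so each of the 6 region tests gave an exact permutation p of 0.00794, the smallest that 5 against 5 libraries allow, and 0.0159 after adjustment over the 12 tests. The difference between regions was therefore larger for Ppp3ca than for Ppp3cb or Ppp3r1 in each genotype. Other gene pairs were not tested, so no share of pairs stands beside these 6 tests. For single genes, the CPM of the regions did not overlap for 29.5% of all genes in wild type and 29.8% in knockout. Genotype ratios overlapped in both regions, with adjusted exact permutation p-values of 0.150 or more.

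**Figure D4:**
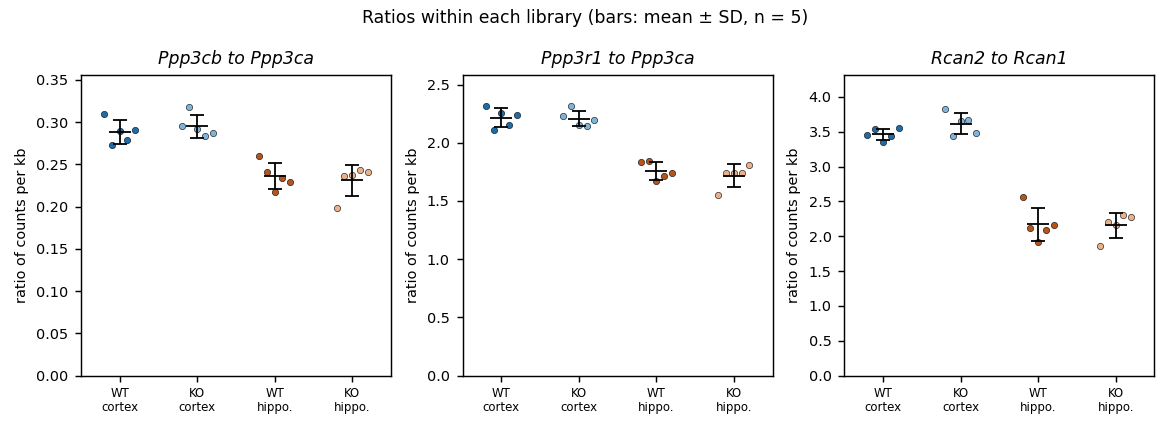
Ratios of counts per kb within each library for 3 gene pairs, by group, with bars for mean ± SD over 5 libraries and axes from 0. For each pair the hippocampus points lie below all cortex points of the same genotype, and the knockout points overlap the wild-type points of their region.

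Other genes of the pathway were read from 6 lists, named here by the smallest adjusted p. Knockout and wild type differed for 0 of 50 tested genes in cortex and 0 of 51 in hippocampus with edgeR, and DESeq2 and limma-voom called 0 too. DESeq2 gave no adjusted p for 8 of the 50 in cortex, so its 0 there covers the others only. At an unadjusted p under 0.05 in edgeR there were 9 list genes in cortex and 1 in hippocampus, against the shares of all genes given above. List medians of the genotype differences lay between -0.02 and 0.08 on the log2 scale. The region comparisons called 31 of 50 in wild type and 31 of 51 in knockout, where 39.5% and 38.8% of all genes were called. Their calls are given list by list as log2 fold changes of hippocampus against cortex. The counts are to be read beside the 18.8% of all genes that were higher and 20.7% that were lower in wild type, 19.2% and 19.6% in knockout, and the medians beside the 0.01 of all genes. With 3 to 16 tested genes a list, no list was tested against the other genes.

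Of the binding partners of calcineurin, 1 of 8 tested was higher and 3 lower in wild type (median -0.11), and 1 and 3 of 9 in knockout (median 0.00). Fkbp1a, the protein through which tacrolimus inhibits calcineurin, rose by 0.42 (SE 0.04, edgeR adjusted p 4.81e-06) in wild type and 0.53 in knockout. Akap5, the anchor that holds calcineurin at synapses, fell, at -0.63 (SE 0.08, adjusted p 2.00e-05) and -0.67. Rcan3, the third RCAN gene, fell, at -0.45 (SE 0.08, adjusted p 0.000656) and -0.48, from 45.2 ± 6.31 to 33.3 ± 1.27 CPM in wild type (SD, n = 5). All 3 RCAN genes were therefore lower in hippocampus, Rcan2 by the most. Chp2, a calcineurin B homologue, was lower, with group means at or below 1.01 CPM.

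Kinases that rephosphorylate NFAT were called higher for 2 of 12 and lower for 5 in wild type (median -0.12), and for 2 and 4 in knockout (median -0.07). Mapk9, the kinase JNK2, fell, at -0.56 (SE 0.04, edgeR adjusted p 4.02e-07) in wild type and -0.57 in knockout. Gsk3b, the kinase that drives NFAT out of the nucleus, fell, at -0.37 (SE 0.05, adjusted p 5.20e-05) and -0.35. Csnk1a1, casein kinase 1 alpha, rose by 0.27 (SE 0.05, adjusted p 0.000439) and 0.28. The list thus moved in both directions.

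Among other neuronal substrates 6 of 16 were higher and 4 lower in wild type (median 0.13), and 7 and 4 in knockout (median 0.17). Gria1, the AMPA receptor subunit GluA1, rose by 1.60 (SE 0.06, edgeR adjusted p 2.13e-09) in wild type and 1.55 in knockout, from 456 ± 8.34 to 1394 ± 147 CPM in wild type (SD, n = 5). Mef2c, a transcription factor of cortical neurons, fell, at -2.36 (SE 0.16, adjusted p 1.72e-07) and -2.46. Ppp1r1b, the phosphatase inhibitor DARPP-32, fell, at -2.48 (SE 0.15, adjusted p 4.86e-08) and -2.62, and it is also on the list of striatal markers, all of which were lower in hippocampus. Elk1, a transcription factor, rose by 0.46 and 0.44.

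**Figure D5:**
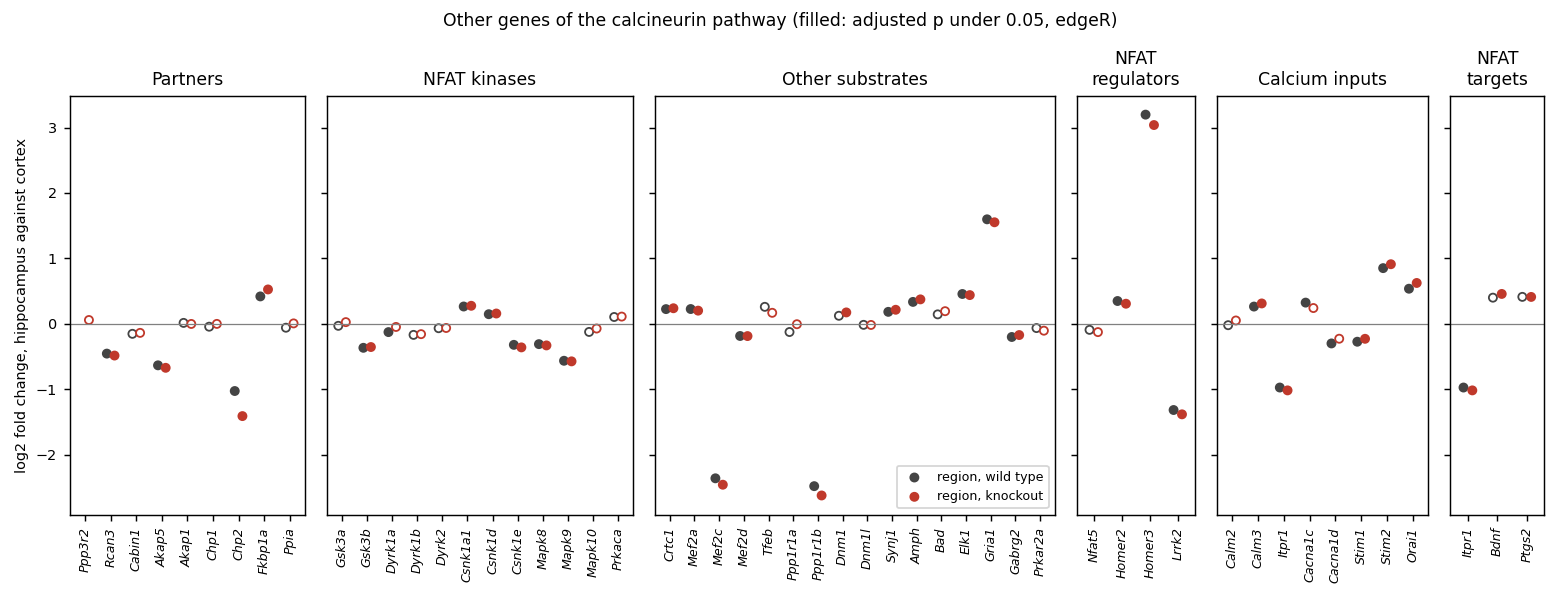
Log2 fold changes of hippocampus against frontal cortex for the tested genes of the 6 pathway lists, with filled points for an edgeR adjusted p under 0.05 and separate colours for wild type and knockout. Homer3 and Gria1 have the highest values, Mef2c and Ppp1r1b the lowest, and the points of the 2 genotypes lie side by side.

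Of 4 tested NFAT relatives and regulators, 2 were higher and 1 lower in each genotype. Homer3, a scaffold that competes with calcineurin for NFAT, rose by 3.20 (SE 0.10, edgeR adjusted p 5.96e-10) in wild type and 3.04 in knockout, from 4.72 ± 0.315 to 44.0 ± 6.49 CPM in wild type (SD, n = 5). Homer2 rose by 0.35 and 0.31, and Lrrk2, a kinase, fell, at -1.32 and -1.38. The medians were 0.13 and 0.09.

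Calcium inputs were called higher for 4 of 8 and lower for 3 in wild type (median 0.12), and for 3 and 2 in knockout (median 0.15). Stim2, a calcium sensor of the endoplasmic reticulum, rose by 0.85 (SE 0.07, edgeR adjusted p 9.34e-07) and 0.91, while Stim1, a related sensor, fell, at -0.27 and -0.23. Itpr1, the inositol trisphosphate receptor that releases calcium from stores, fell, at -0.97 (SE 0.06, adjusted p 6.62e-08) and -1.02. Orai1, the channel that STIM proteins open, rose by 0.54 and 0.62. Of the calmodulin genes tested, Calm3 rose by 0.26 in wild type and 0.31 in knockout, and Calm2 differed by -0.02 and 0.05 without a call.

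Reported NFAT target genes did not move one way. In wild type 0 of 3 tested were higher and 1 lower, and in knockout 2 were higher and 1 lower, with medians of 0.40 and 0.41. Itpr1, also on the list of calcium inputs, is the gene that was lower. Bdnf, a neurotrophin, differed by 0.40 in wild type (SE 0.17, adjusted p 0.0810) and rose by 0.46 in knockout (SE 0.07, adjusted p 0.000189), and Ptgs2 by 0.41 (SE 0.17, adjusted p 0.0673) and 0.41 (SE 0.11, adjusted p 0.0114). Whether these calls differ between the genotypes was covered by the test over the 20 libraries, which called 0 genes.

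Genes with the most similar pattern were looked for where the SD of a gene's log2 level over the 20 libraries was at least 0.3, which held for Rcan2 and Nfatc4. Likeness was the root-mean-square difference of gene-centred log2 levels over the 20 libraries, among 9877 other genes whose mean was 10 CPM or more. Closest to Rcan2 were Pmepa1 at 0.08, Elmo1 at 0.09 and Stk32c at 0.09, which stood at 75.6, 116 and 120 CPM in wild-type cortex and 34.9, 52.6 and 54.6 in wild-type hippocampus. Closest to Nfatc4 were Zfp36l1 at 0.32, Id3 at 0.33 and Agtrap at 0.34, distances near the SD of Nfatc4 itself, 0.43, so none of them followed its low counts closely.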

How the data were processed

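The values are expected counts per gene, deposited by the authors as 1 table per region and not scaled for depth; per the submitters' processing notes, STAR 2.7.3a and Partek were used with the mm10 build. The annotation, strand setting and filters have no record in the sources used here. Between 22.6% and 27.3% of a library's values were more than 0.001 from a whole number, so expected counts were rounded.

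Groups and replicate numbers came from the sample titles. EdgeR 4.0.16 (R 4.3.3) was run on genes kept by filterByExpr, scaled with TMM, using its quasi-likelihood test and adjusting p over all genes tested by Benjamini-Hochberg, for genotype within region, region within genotype (genes listed in both tables) and their interaction over the 20 libraries. The 95% intervals used the SE and the fit's degrees of freedom. The filter kept 14823 genes in cortex, 15042 in hippocampus, 14849 and 15032 in the region comparisons and 15310 over all libraries. Ratios were tested in scipy 1.17.1. The code was tested on simulated counts. Exonic length came from GENCODE, and coordinates are those of the deposited tables, with ends reduced by 1 base.

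The members, lists and tests were chosen with earlier results of these data known. Text names all 10 members, Ncs1, at most 4 called genes per list and comparison by smallest adjusted p, the 3 genes most like a member with an SD of at least 0.3, and some list genes without a call (Calm2, Bdnf, Ptgs2) beside their calls elsewhere. Some genes of the lists are not reported here. Called list genes outside the first 4 by adjusted p were named after their values were seen. Alternatives were DESeq2 1.42.0 with its size factors, those factors or total counts in edgeR, limma-voom (limma 3.58.1), no filter or at least 10 counts in every library, a block for the replicate number, leaving out single libraries, Rn45s removed, the exonic length trend removed, all 20 libraries in 1 fit, the 3 hippocampus libraries with the most Ttr left out, a pseudocount of 0.5 for ratios and, added after seeing the data, the 2 cortex libraries per genotype with the most striatal marker RNA left out.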

Additional observations from a re-analysis of the deposited data

Results flagged for a closer look

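In 3 of 44 groups of 5 libraries (10 genes and Ncs1 in 4 groups), 1 library lay apart from the others: its gap to the nearest library took up more than 0.71 of the whole range. Chance alone flags about 1 in 20 groups. Ppp3ca in knockout hippocampus replicate 1 was at 2940 CPM where the next library had 2460, a gap of 0.852 of the range. Ppp3cc in wild-type hippocampus replicate 3 was at 18.7 CPM where the next had 15.3, a gap of 0.935 of the range. Ncs1 in wild-type hippocampus replicate 3 was at 471 CPM where the next had 438, a gap of 0.754 of the range.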

How the results depend on the processing

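Counts of the 10 genes called stayed within 1.5 times under all 114 alternatives, with 3 to 5 in the wild-type region comparison, 5 in the knockout one and 0 in the others. Over all genes, cortex genotype calls went from 4 to 162 with DESeq2, 7 in 1 fit of all 20 libraries and 4 to 563 with each library left out, 563 being without wild-type cortex replicate 5. Hippocampus genotype calls went to 0 without the 3 libraries with the most Ttr, and the calls for the difference of genotype effects between regions to 1 with DESeq2 and to 0 to 1 with each library left out. The cause was not tested.

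The labels do not say what a replicate number shares, and the numbers were not taken as pairs, which required every same-numbered correlation of deviations to exceed 0.1. Replicate 2 missed this between the regions in both genotypes. The correlations ran from 0.0846 to 0.372 between wild-type regions, where each library correlated best with its own number in 5 of 5, a hint of pairing from the data and not the design, and from -0.143 to 0.186 between knockout regions, where 3 of 5 did. With the number as a replicate block, Ppp3r1 was called in wild type between regions (0.11, adjusted p 0.0224), and cortex genotype calls over all genes were 4. For the ratios, the replicate block was a sign-flip test whose smallest p is 0.0625: the log2 differences of Ppp3cb to Ppp3ca (-0.287 in wild type, -0.355 in knockout), Ppp3r1 to Ppp3ca (-0.331, -0.364) and Rcan2 to Rcan1 (-0.679, -0.748) had an adjusted p of 0.125.

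Only estimates without a call changed sign. In hippocampus between genotypes, Ppp3ca went to -0.0211 and Ppp3r1 to 0.0065 with the length trend removed, and Ppp3r1 to 0.0088 without the libraries rich in Ttr. Between regions, wild-type Nfatc3 went to 0.0115 with total-count scaling, 0.0689 with the length trend removed, and 0.0005 both in 1 fit of all 20 libraries and without the 2 cortex libraries rich in striatal markers, and knockout Nfatc1 to 0.0175 with the length trend removed. With each library left out, the cortex genotype difference of Nfatc4 ran -0.0687 to 0.221. In hippocampus it ran -0.1637 to 0.195 for Nfatc4, -0.0461 to 0.0869 for Ppp3ca, -0.0282 to 0.0227 for Ppp3cb, -0.0433 to 0.0289 for Ppp3r1, -0.0991 to 0.0008 for Rcan1 and -0.0963 to 0.0094 for Rcan2. Between regions it was -0.0591 to 0.0653 for Nfatc1 and -0.0632 to 0.0263 for Nfatc3 in wild type, and -0.0865 to 0.0299 for Nfatc1 in knockout. The difference of genotype effects was -0.115 to 0.0228 for Nfatc1, -0.1798 to 0.0104 for Nfatc2, -0.2248 to 0.1367 for Nfatc4, -0.0324 to 0.0726 for Ppp3cc and -0.0614 to 0.0414 for Rcan2. Genotype ratios were -0.0621 to 0.0205 for Ppp3cb to Ppp3ca and -0.0503 to 0.0537 for Rcan2 to Rcan1 in hippocampus, and -0.0205 to 0.0122 for Ppp3r1 to Ppp3ca in cortex. Depth limits Nfatc4 most, at 16 to 73 counts per library.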
